A study of Mus musculus with 12 samples.

Results

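The genes described here are the BMP ligands Bmp2 and Bmp4, the receptor-activated SMADs Smad1 and Smad5, the inhibitory SMADs Smad6 and Smad7, and the ID genes Id1, Id2 and Id3. They were chosen by name, as every probe set annotated to 1 of these 9 genes alone, and make up 9 of the 18194 genes on the array with 16 of its 45101 probe sets. Of the 9 genes, 7 lay above the filter on low signal and were tested. Bmp4 and Smad6 lay below it.

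Bone morphogenetic proteins bind paired type I and type II serine/threonine kinase receptors, which phosphorylate SMAD1 and SMAD5. These enter the nucleus with SMAD4 and switch on target genes, among them the ID genes and the inhibitory SMADs, which feed back on the receptors. ID proteins lack a DNA-binding domain and hold E proteins away from DNA, and BMP4 is known in erythroid biology for the expansion of stress progenitors in the mouse spleen.

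The study used I/11 cells, an immortalised line of expanding mouse erythroid progenitors from p53-deficient fetal liver, kept in serum-free medium with erythropoietin, stem cell factor (SCF) and dexamethasone. All lines carried a lentiviral pLKO vector with puromycin resistance. It held a scrambled shRNA (scr, the control) or 1 of 2 hairpins, sh14 and sh133, against Plcg1, which encodes the signalling enzyme phospholipase C gamma 1. Each line was sampled at 1, 6, 12 and 22 h, with 1 array for each line and time, so that a standard deviation (SD) over the 4 arrays of a line also holds its change over time. What the hours are counted from is not given in the labels, nor whether any arrays came from separate cultures. A line is 1 stably infected population, so an effect of the hairpin and of that population cannot be told apart. Titles of the arrays hold 1 of 2 dates, whose meaning is not stated, and these were taken as 2 array runs. Run 1 held the 4 sh14 arrays and sh133 at 6 and 12 h. Run 2 held the 4 scr arrays and sh133 at 1 and 22 h.

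Over the whole series the medians of the 12 arrays lay between 1.84 and 1.92 on the log2 scale, and the arrays correlated with each other at 0.983 to 0.997. The mean log2 signal of Plcg1 was 4.53 in scr, against 4.15 in the sh14 line and 4.41 in the sh133 line, and the difference of both hairpins from scr, -0.24, did not pass the test (limma adjusted p = 0.592). The target check is therefore not met on these arrays, and "sh14" and "sh133" below mean the libraries labelled so. Of 7 erythroid markers on the array, 6 had a mean above the highest array median, and Hba-a1 did not. The mean over the erythroid markers ran from 6.37 to 7.54 in scr, 6.04 to 7.08 in sh14 and 6.49 to 7.55 in sh133. Of markers of other cell types, 0 of 6 for fibroblasts, 0 of 3 for lymphocytes, 1 of 5 for endothelium, 2 of 6 for macrophages and 2 of 4 for liver parenchyma had a mean above the highest array median. So did 4 of 6 for megakaryocytes and 3 of 7 for mast cells and basophils.

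The promoters of Id2 and Id3 are shown because these genes had the highest correlation among the members over the 12 arrays (r = 0.86). Both genes were highest in sh14 at 1 h, and the correlation without that array was not computed. Sequences are RefSeq's, of build GRCm38.p6, and cover the 250 bases before the annotated start. Of the 9 genes, 6 have a promoter in the table used. Capitals mark matches on either strand to GGCGCC (a SMAD1/SMAD5-type GC-rich motif), GTCT or its reverse complement AGAC (the SMAD-binding element core), and CANNTG (the E-box bound by E proteins). The first is chr12:25096093-25096342, minus strand, and the second chr4:136143572-136143821, plus strand.
Id2: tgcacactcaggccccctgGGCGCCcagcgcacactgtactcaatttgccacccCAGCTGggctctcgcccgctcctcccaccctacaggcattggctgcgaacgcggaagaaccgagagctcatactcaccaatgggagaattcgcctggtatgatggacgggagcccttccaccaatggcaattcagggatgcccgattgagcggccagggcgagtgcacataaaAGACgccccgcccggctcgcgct
Id3: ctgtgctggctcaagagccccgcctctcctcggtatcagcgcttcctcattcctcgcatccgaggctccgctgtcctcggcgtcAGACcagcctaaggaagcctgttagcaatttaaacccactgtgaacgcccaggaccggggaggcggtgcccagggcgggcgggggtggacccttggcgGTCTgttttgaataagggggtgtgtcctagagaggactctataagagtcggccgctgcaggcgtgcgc
The Id2 window held 1 match to GGCGCC, 1 to GTCT and 1 to CANNTG. The Id3 window held 2 matches to GTCT, 1 to GATA (the core bound by GATA factors) and 0 to GGCGCC or CANNTG. Neither held TTCNNNGAA, the STAT motif, and no 2 matches overlapped. Of 32851 promoter windows of the same length, 9.59% held GGCGCC, 82.9% GTCT, 66.2% CANNTG, 53.6% GATA and 7.02% TTCNNNGAA. A match is a description of these letters and not of binding.

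Bmp2 was lower in both hairpin lines than in the control line and fell with time. Its log2 signal in scr was 6.81 at 1 h, 5.22 at 6 h, 4.91 at 12 h and 4.98 at 22 h (mean 5.48 ± 0.89 SD, n = 4). In sh14 it was 4.90, 3.77, 3.98 and 4.38 at the same times (mean 4.26 ± 0.50 SD, n = 4). In sh133 it was 5.28, 4.66, 4.58 and 4.17 (mean 4.67 ± 0.46 SD, n = 4). The 1 h sample was the highest of each line, the sh14 values all lay below the lowest scr value (4.90 at most against 4.91 at least), and the sh133 values overlapped those of scr. All 4 sh14 arrays lay below all 4 scr arrays in 8.42% of all genes.

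Compared at matched times, Bmp2 was below scr at 4 of 4 times in either hairpin line, as were 5.86% of all genes. The gap between sh14 and scr, which share no array run, was -1.90 at 1 h, -1.45 at 6 h, -0.93 at 12 h and -0.60 at 22 h. Between sh133 and scr it was -1.52 at 1 h and -0.81 at 22 h, where both arrays belong to run 2, and -0.56 at 6 h and -0.33 at 12 h, where they do not. In a limma model with terms for shRNA, time and array run, Bmp2 fell by 1.53 ± 0.27 SE on the log2 scale in both hairpins against scr (95% confidence interval -2.13 to -0.94, adjusted p = 0.0196), to 34.5% of the scr signal. It was the only 1 of the 7 tested members past the threshold of 0.05 in this comparison, where 2.18% of all 12673 tested genes were called and 1.04% were called lower, and it ranked 17 from the lowest of them. Against scr alone, sh14 differed by -1.91 ± 0.34 SE (adjusted p = 0.0172) and sh133 by -1.15 ± 0.23 SE (adjusted p = 0.0185). Bmp2 was again the 1 member called in each, where 3.06% of all genes were called for sh14 (1.56% lower) and 4.91% for sh133 (2.45% lower).

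The size of the Bmp2 difference depended on the run term and on single arrays, and its call on single arrays. The run term for Bmp2 was -0.69 (run 2 minus run 1, unadjusted p = 0.0408, adjusted p = 0.882). Since sh133 alone has arrays in both runs, the run and a time course of sh133 cannot be told apart. Without the run term the difference of both hairpins was -1.01 (adjusted p = 0.00221), and for sh14 it was -1.22 (adjusted p = 0.0011) in place of -1.91. Within run 2 alone, with 1 and 22 h only and 1 residual degree of freedom, sh133 differed from scr by -1.17 (adjusted p = 0.0192). The call for both hairpins was lost without sh14 at 6 h (adjusted p = 0.0752) and without sh133 at 1 h (0.154), 6 h (0.0667), 12 h (0.0679) or 22 h (0.103). The sh14 call was lost without the same arrays, with adjusted p between 0.0575 and 0.107. The sh133 call was lost without sh133 at 1 h (0.154) or 22 h (0.155). In those fits the difference itself stayed between -1.56 and -1.45 for both hairpins, between -1.94 and -1.78 for sh14, and between -1.18 and -1.13 for sh133. Over all fits with 1 array left out it ran from -1.84 to -1.20 for both hairpins, the -1.20 without scr at 1 h. For sh14 it ran from -2.26 to -1.53 and for sh133 from -1.42 to -0.87. Without the 3 arrays of 1 h, where the scr signal stood highest, the difference of both hairpins was -1.33 (adjusted p = 0.0696). The 10 tested genes nearest to Bmp2 on chromosome 2 had a median difference of -0.05, and 0 of them was called.

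Bmp4, the other ligand among the members, stayed near the bottom of the scale, between 0.57 and 1.08 on all 12 arrays, below every array median. Its lowest value was scr at 1 h. No difference was tested.

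**Figure D1:**
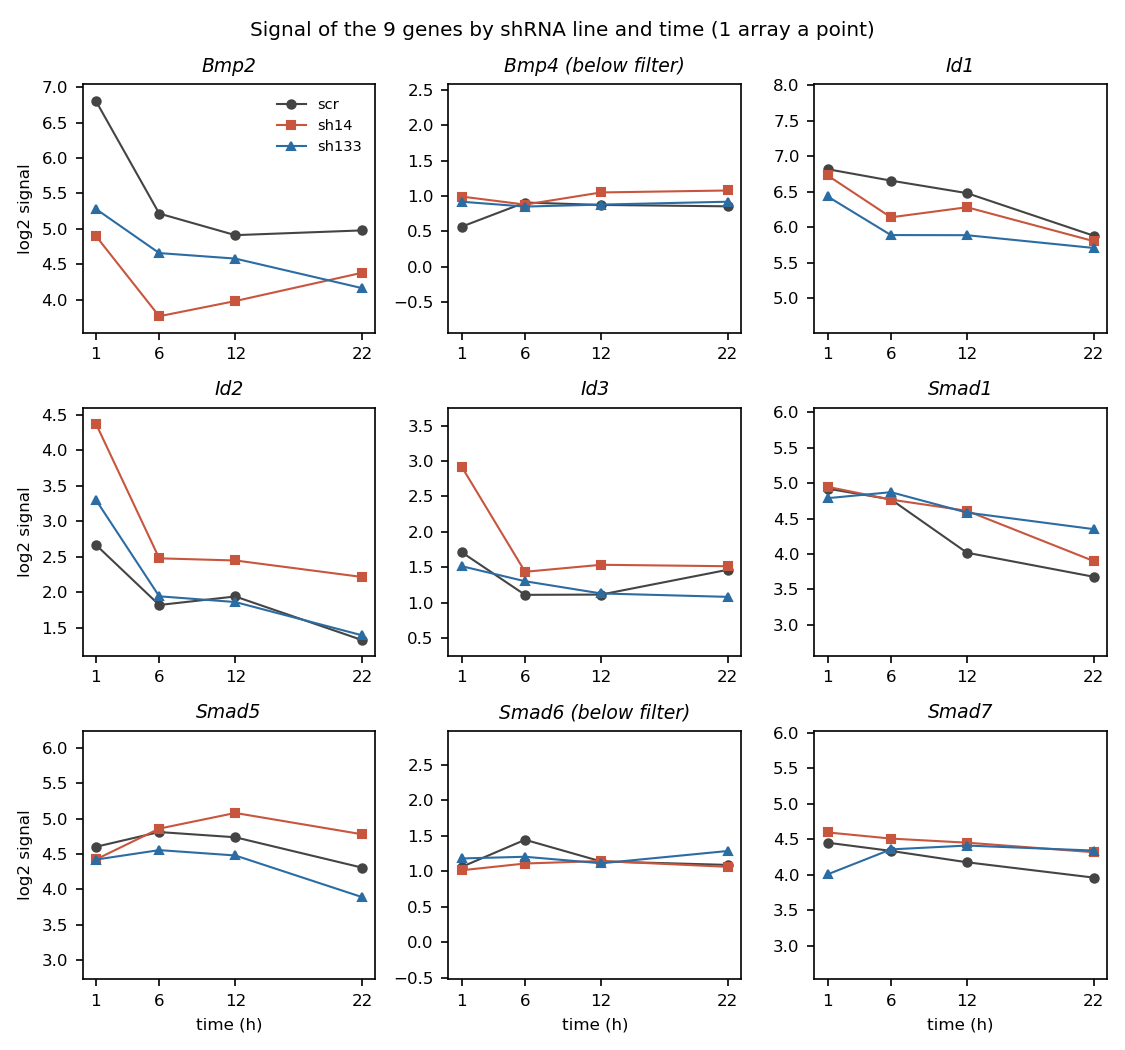
Log2 signal of the brightest probe set of each of the 9 genes (y axis) against time in hours (x axis), with 1 point for each array and 1 line for each of scr, sh14 and sh133. The y axes span the same width and are placed at different levels. Bmp2 in scr starts at 6.81 at 1 h, above both hairpin lines, and Bmp4 and Smad6 stay under 1.5 on every array.

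Smad1, a receptor-activated SMAD of the BMP branch, fell with time. Its log2 signal was 4.92, 4.77, 4.02 and 3.68 in scr at 1, 6, 12 and 22 h, 4.95, 4.77, 4.61 and 3.90 in sh14, and 4.79, 4.87, 4.58 and 4.35 in sh133. The 22 h sample was the lowest of every line, and the ranges of the lines overlapped. Smad1 differed by -0.91 ± 0.16 SE between 22 h and 1 h (limma adjusted p = 0.00348). At 12 h it differed from 1 h by -0.48 (adjusted p = 0.153) and at 6 h by -0.08 (adjusted p = 0.878). The 22 h signal was lower than that of 1 h by -1.24 in scr, -1.05 in sh14 and -0.44 in sh133. The difference of both hairpins from scr was 0.27 (95% confidence interval -0.21 to 0.75, adjusted p = 0.646).

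Smad5, the partner of Smad1, showed no change with time that passed the test in its brightest probe set. Its log2 signal was 4.60, 4.81, 4.74 and 4.31 in scr, 4.42, 4.86, 5.08 and 4.78 in sh14, and 4.42, 4.55, 4.48 and 3.89 in sh133. In sh133 it was below scr at 4 of 4 times, by 0.18 to 0.42, and the difference of -0.29 did not pass (adjusted p = 0.438). The share of all genes below scr at 4 of 4 times in sh133 was not computed. Between 22 h and 1 h it differed by -0.16 (95% confidence interval -0.49 to 0.18, adjusted p = 0.523), and with the mean of its probe sets by -0.34, which passed (adjusted p = 0.0426).

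Of the inhibitory SMADs, Smad6 was between 1.02 and 1.45 on all 12 arrays and was not tested. Smad7, which blocks receptor access and recruits ubiquitin ligases, had a log2 signal of 4.45, 4.34, 4.18 and 3.96 in scr, 4.60, 4.51, 4.45 and 4.32 in sh14, and 4.00, 4.36, 4.41 and 4.34 in sh133. In sh14, which shares no array run with scr, it was above scr at 4 of 4 times, by 0.14 to 0.36. The share of all genes above scr at 4 of 4 times in sh14 was not computed. In sh133 it was below scr at 1 h and above it at the other times. Its fitted difference of both hairpins from scr was 0.01 (95% confidence interval -0.41 to 0.43, adjusted p = 0.986), and between 22 h and 1 h it was -0.15 (adjusted p = 0.522). Neither passed the test.

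Id1, a target of BMP signalling that keeps E proteins off DNA, fell between 1 h and 22 h. Its log2 signal was 6.82, 6.66, 6.48 and 5.88 in scr, 6.73, 6.14, 6.28 and 5.80 in sh14, and 6.43, 5.89, 5.89 and 5.71 in sh133. The 22 h sample was the lowest of every line, and the 22 h minus 1 h difference was -0.94 in scr, -0.93 in sh14 and -0.73 in sh133. In the model it was -0.86 ± 0.11 SE (limma adjusted p = 0.000475), which is 54.9% of the 1 h signal. Id1 lay below scr at 4 of 4 times in either hairpin line, as did 5.86% of all genes, by 0.08 to 0.52 in sh14 and 0.17 to 0.77 in sh133. The fitted difference did not pass for sh133 (-0.35 ± 0.12 SE, adjusted p = 0.161) nor for both hairpins (-0.15, adjusted p = 0.716). Without the run term it passed for both hairpins (-0.35, adjusted p = 0.0171) and for sh133 (-0.48, adjusted p = 0.00876), and the sh14 difference turned from 0.04 to -0.22.

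Id2 fell with time and stood highest in sh14. Its log2 signal was 2.67, 1.82, 1.94 and 1.32 in scr at 1, 6, 12 and 22 h. In sh14 it was 4.38, 2.48, 2.45 and 2.21, and in sh133 it was 3.30, 1.94, 1.86 and 1.39. The 1 h sample was the highest of each line and most of the drop lay between 1 h and 6 h. The sh14 value was above that of scr and of sh133 at 4 of 4 times, and the share of all genes for which this held was not computed. Id2 fell by 1.38 ± 0.21 SE on the log2 scale from 1 h to 6 h (limma adjusted p = 0.00699), and stood 1.38 below 1 h at 12 h (adjusted p = 0.00472). Between 22 h and 1 h it differed by -1.81 ± 0.19 SE (adjusted p = 0.000203), which is 28.6% of the 1 h signal and rank 32 from the lowest of all 12673 genes. This size holds for the brightest probe set, and with the mean of its probe sets Id2 differed by -0.98, still past the threshold and smaller than the -1.15 of Bmp2. That mean takes in a set below the filter, whose own mean signal was 0.71. The second set above the filter differed by -1.08. In the brightest set, without sh14 at 6 h, the change to 6 h was -1.23 and missed the threshold (adjusted p = 0.0546).

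The Id2 excess in sh14 over scr, which share no array run, was 1.71 at 1 h, 0.66 at 6 h, 0.51 at 12 h and 0.89 at 22 h. The model gave 0.91 ± 0.33 SE (95% confidence interval 0.19 to 1.64, adjusted p = 0.181), which did not pass. Without the run term it was 0.94 and passed (adjusted p = 0.0011), while it was 0.47 with the mean of the probe sets and 0.46 without scr at 1 h, neither past the threshold. The mean of the probe sets takes in the set below the filter. The second set above the filter gave 0.55, which did not pass (adjusted p = 0.550). For sh133 the difference was 0.17 (adjusted p = 0.757), and for both hairpins 0.54 (adjusted p = 0.369).

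Id3 was dim, under the array medians on all arrays but sh14 at 1 h. It passed the filter of 1.45 through sh14, where its mean was 1.85, while its means in scr (1.35) and sh133 (1.26) lay below the filter, so its tests rest on that line. Its log2 signal was 1.71, 1.11, 1.12 and 1.47 in scr, 2.92, 1.44, 1.54 and 1.52 in sh14, and 1.52, 1.30, 1.13 and 1.08 in sh133. The 1 h sample was the highest of each line, by the widest margin in sh14. In the model Id3 fell by 0.94 on the log2 scale to 6 h (adjusted p = 0.0337) and stood 0.96 below 1 h at 12 h (adjusted p = 0.0226) and 0.69 ± 0.19 SE below it at 22 h (adjusted p = 0.0286). These calls rest on few arrays. The 22 h difference was -0.39 without sh14 at 1 h (adjusted p = 0.05004), -0.48 without sh14 at 22 h (0.102), and -0.83 without sh133 at 1 h or at 22 h (0.0592). The 6 h call was lost without any 1 of the 6 and 12 h arrays (adjusted p 0.0574 to 0.171), and the 12 h call without scr at 12 h (0.101), sh14 at 12 h (0.112), or sh133 at 6 or 12 h (0.0598). Against scr, Id3 differed in neither hairpin past the threshold (adjusted p = 0.987 for sh14 and 0.446 for sh133).

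The sh14 line, which had the highest Id2 and Id3 signal, was also the highest in the mean over 7 mast cell and basophil markers, which ran from 2.08 to 2.35 in sh14, from 1.43 to 1.58 in scr and from 1.20 to 1.46 in sh133. Of these 7 markers 3 had a mean above the highest array median. Fcer1a, a subunit of the high-affinity IgE receptor, was 3.58, 3.96, 4.55 and 4.46 in sh14 at 1, 6, 12 and 22 h and at most 1.54 elsewhere. Ms4a2, another subunit of it, was 3.84, 3.05, 2.79 and 2.14 in sh14 and at most 2.71 elsewhere, and Cpa3, a mast cell protease, was 3.66, 3.11, 2.64 and 2.31 in sh14 and at most 2.60 elsewhere. Over time in sh14, Ms4a2 and Cpa3 were lowest at 22 h, as Id2 was, and Fcer1a was lowest at 1 h. The same order held in scr, where Ms4a2 went from 2.71 at 1 h to 1.34 at 22 h and Cpa3 from 2.19 to 1.51. In sh133 Cpa3 was lowest at 22 h (1.44), and Ms4a2 and Fcer1a were lowest at 12 h. Mcpt8, Tpsb2, Tpsab1 and Cma1 lay below the highest array median, and Cma1 was lower in sh14 than in scr at each time. The mean over 6 megakaryocyte markers was 2.66 to 2.93 in scr, 3.20 to 3.82 in sh14 and 3.01 to 3.67 in sh133, so it was higher in both hairpin lines. Its genes differed. Itga2b was 5.3 to 6.3 in scr, 7.3 to 7.7 in sh14 and 6.0 to 6.2 in sh133. Pf4 was 3.7 to 4.5 in scr, 4.9 to 5.5 in sh14 and 5.1 to 7.6 in sh133. Gp9 and Gp1bb overlapped between the lines, and Ppbp and Vwf had a mean below the highest array median. In neither hairpin line did Id2 differ from scr past the threshold. The part of these markers in the differences between lines was not tested, and in bulk RNA more cells of a type and more RNA per cell cannot be told apart.

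**Figure D2:**
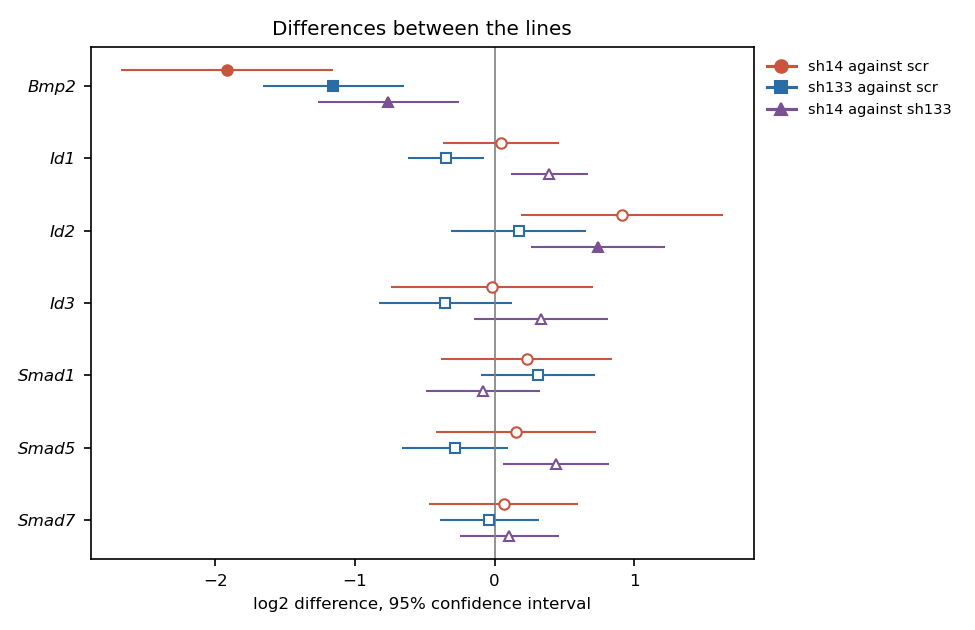
Log2 differences of the 7 tested genes from the limma model (x axis) for sh14 and sh133 against scr and for sh14 against sh133, with 95% confidence intervals as bars. Filled points passed the adjusted threshold of 0.05. Bmp2 passes in all 3 comparisons, with every interval below 0, and Id2 passes for sh14 against sh133.

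The direct comparison of the hairpin lines showed Bmp2 lower and Id2 higher in sh14 than in sh133. Of the 7 members 2 passed, where 14.6% of all genes did. Bmp2 in sh14 minus sh133 was -0.38 at 1 h, -0.89 at 6 h, -0.60 at 12 h and 0.22 at 22 h, and the fitted difference was -0.76 ± 0.23 SE (limma adjusted p = 0.0488). The 6 and 12 h arrays of both lines lie in run 1. Without the run term the fitted value was -0.41 and did not pass (adjusted p = 0.165). Id2 in sh14 minus sh133 was 1.08, 0.54, 0.59 and 0.82 at the 4 times, and the fitted difference was 0.74 ± 0.22 SE (adjusted p = 0.0451). Within run 1 alone, in a fit with 1 residual degree of freedom, Id2 differed by 0.56 (adjusted p = 0.0158). With the mean of its probe sets, which takes in the set below the filter, Id2 differed by 0.36 and did not pass (adjusted p = 0.132). The second Id2 set above the filter differed by 0.50 and did not pass (adjusted p = 0.244). The Bmp2 and Id2 calls both lie close to the threshold. The Bmp2 call was lost without scr at 6 or 12 h, sh14 at 6 or 12 h, or any 1 sh133 array (adjusted p 0.0707 to 0.291). The Id2 call was lost without any 1 of the 12 arrays except scr at 1 h and sh14 at 1 h (adjusted p 0.0554 to 0.302). Id1 was higher in sh14 by 0.39 and just missed the threshold (adjusted p = 0.0606). It passed with the mean of probe sets (0.0472), the stricter filter at the 60th percentile (0.0463), limma's trend and robust options (0.0458) and without sh14 at 6 h (0.0457). Smad5 was higher by 0.44 (adjusted p = 0.122). Smad5 passed without the run term (0.45, adjusted p = 0.0201) and within run 1 alone (0.45, adjusted p = 0.0465), with the mean of probe sets (0.49, adjusted p = 0.0207), and without sh14 at 1 h (0.51, adjusted p = 0.0251) or all arrays of 1 h (0.50, adjusted p = 0.0264). For Smad1 the difference was -0.08 (95% confidence interval -0.49 to 0.32), for Smad7 0.10 (-0.25 to 0.46) and for Id3 0.33 (-0.14 to 0.81). Without the run term Id3 was 0.59 higher in sh14 and passed (adjusted p = 0.0304).

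Across the 3 lines, Bmp2, Id1, Id2, Id3 and Smad1 fell between 1 h and 22 h. These are 5 of the 7 tested members, all 5 lower, where 9.34% of all genes were called lower and 18.1% in either direction. Of the 5, Id3 was tested only through its level in sh14. The median difference of the 7 members was -0.86, against 0.02 over all genes tested. In each of these 5 genes the 22 h sample was below the 1 h sample in all 3 lines. The 5 were called lower on these same differences, so this is a description and not separate support. It held for 20.5% of all genes, called or not. Both arrays of each pair of 22 h and 1 h lie in the same run. Bmp2 differed by -1.15 ± 0.20 SE (limma adjusted p = 0.00309), and in single lines by -1.83 in scr, -0.52 in sh14 and -1.12 in sh133. The mean over the erythroid markers was lowest at 1 h and highest at 22 h in each line. Among them Klf1, an erythroid transcription factor, had a log2 signal of 8.74 at 1 h and 10.1 at 22 h in scr, 8.26 and 9.58 in sh14, and 8.78 and 9.80 in sh133. Their relation to the fall of the members was not tested.

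Fewer members passed at the earlier times. Against 1 h, 3 of the 7 members were called at 6 h and 3 at 12 h, all lower, where 1.93% and 2.75% of all genes were called lower. At both times they were Bmp2, Id2 and Id3, and Id3 was tested only through its level in sh14. Bmp2 differed by -1.35 ± 0.22 SE at 6 h (limma adjusted p = 0.00971) and -1.40 ± 0.22 SE at 12 h (adjusted p = 0.00544). The 6 h call was lost without scr at 6 h (0.0614) or sh14 at 6 h (0.0698), and the 12 h call without scr at 12 h (0.0570). Id1 and Smad1 passed at 22 h, with Id1 at -0.34 at 6 h (adjusted p = 0.147) and -0.36 at 12 h (adjusted p = 0.112). Without the run term Id1 passed at 6 h (-0.43, adjusted p = 0.0446) and at 12 h (-0.44, adjusted p = 0.0311). The differences between the time points after 1 h were not tested. In sh133 the 6 and 12 h arrays belong to the other run than the 1 h array, so these comparisons lean on the run term as the 22 h comparison does not.

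**Figure D3:**
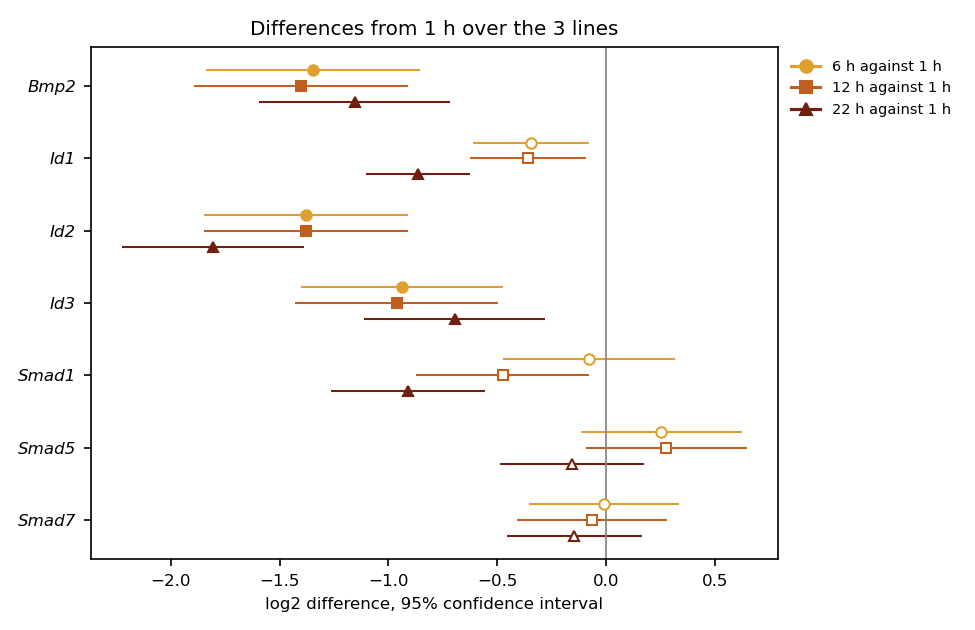
Log2 differences of 6, 12 and 22 h from 1 h over the 3 lines (x axis) for the 7 tested genes, from the limma model with 95% confidence intervals as bars. Filled points passed the adjusted threshold of 0.05. Bmp2, Id2 and Id3 pass at all 3 times, and Id1 and Smad1 at 22 h. Id3 was tested only through its level in sh14.

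Whether the hairpins changed the time course was tested as the difference between the hairpin and scr slopes on log2 hours. For this, 0 of the 7 members passed in limma, with 3 at an unadjusted p under 0.05, and 0.0316% of all genes passed (4 genes, with 2049 at an unadjusted p under 0.05). The 3 members were Bmp2 at 0.23 ± 0.06 SE per doubling of hours (adjusted p = 0.130), Id2 at -0.19 ± 0.06 SE (adjusted p = 0.195) and Smad1 at 0.14 ± 0.06 SE (adjusted p = 0.300). Bmp2 was called without sh133 at 1 h or at 22 h (0.28, adjusted p = 0.0354), and so was Id3 (-0.25, adjusted p = 0.0372).

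Probe sets of the same gene were read singly at 22 h against 1 h, where 16% of 22549 probe sets passed. The 3 sets of Smad1 each fell, by 0.91, 1.51 and 0.81 on the log2 scale (limma adjusted p = 0.00397, 0.00123 and 0.00166), and the other sets correlated with the brightest at r = 0.96 and 0.90 over the 12 arrays. The second Id2 set fell by 1.08 (adjusted p = 0.00788) and correlated with the first at 0.92, while the remaining Id2 set had a mean of 0.71 and lay below the filter. Smad5 was less uniform. Its sets correlated with the brightest at 0.55 and 0.53, and differed at 22 h by -0.16, -0.35 and -0.53, of which the last passed (adjusted p = 0.0174). The second Smad7 set was dim, with a mean of 1.64, and differed by 0.08 where the first differed by -0.15. Bmp2, Bmp4, Id1, Id3 and Smad6 have 1 probe set each. The probe sets of 1 gene share the same 12 libraries, so these correlations are descriptions.

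**Figure D4:**
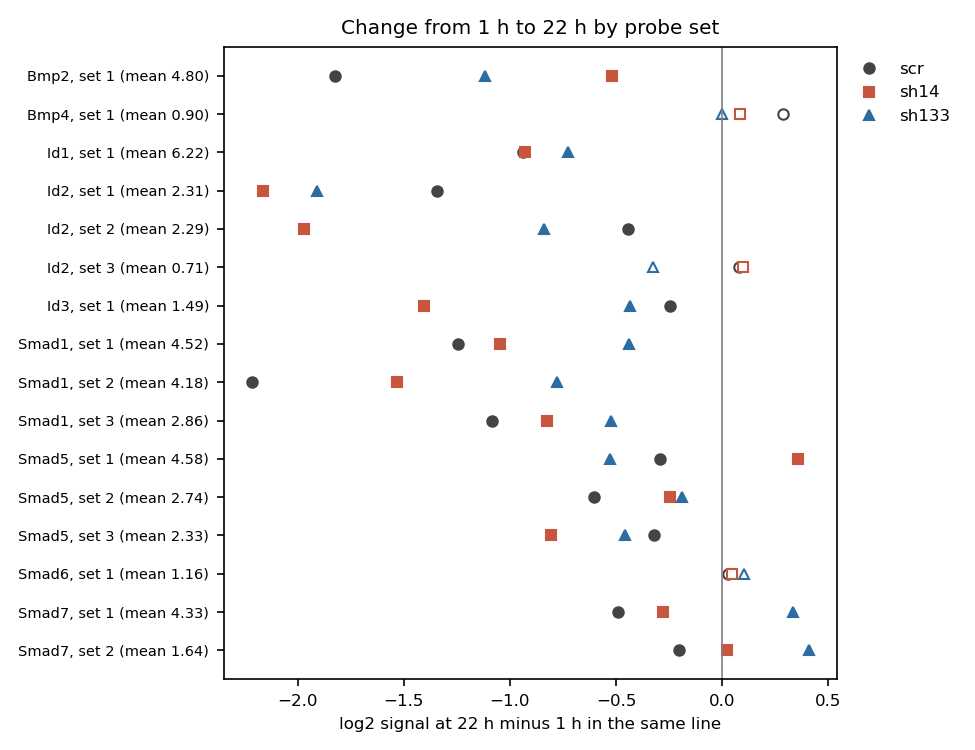
Log2 signal at 22 h minus that at 1 h in the same line (x axis) for each of the 16 probe sets of the 9 genes (y axis, with the mean log2 signal of the set), with 1 point for each of scr, sh14 and sh133. Open points are sets below the filter. All 3 Smad1 sets and the first 2 Id2 sets lie below 0 in every line, while the first Smad5 set lies above 0 in sh14.

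Among the 7 members over the 12 arrays, Id2 and Id3 had the highest correlation of log2 signal (r = 0.86), followed by Bmp2 and Id1 (0.63) and by Id1 and Id2 (0.62). Bmp2 and Smad7 had the lowest (-0.16). The arrays share lines and times, so these are descriptions. Id2 and Id3 were both highest in sh14 at 1 h (4.38 and 2.92), and Id3 lay under the array medians on all other arrays. Their correlation without sh14 at 1 h was not computed. Over all tested genes, the profile most like that of Bmp2 was that of Dnajb9 (r = 0.94), an endoplasmic reticulum chaperone, followed by Card6 (0.92) and Atp1b1 (0.91). For Id1 they were Myadm, Sgk1 and Dhx33 (0.94, 0.94 and 0.92). Sgk1 is a glucocorticoid-induced kinase. For Id2 they were Lat, an adaptor of T cell and mast cell signalling, Etv6 and Lrrn3 (0.95, 0.94 and 0.94), and for Id3 Mutyh, Slc38a2 and Zfp959 (0.91, 0.89 and 0.89). Smad1 was most like Zfp623, Cbfb and Cnn2 (0.90, 0.90 and 0.89), Smad5 like Ercc4, Alg9 and Rhobtb3 (0.95, 0.94 and 0.92), and Smad7 like Bcl2l1, Gprc5a and Pabpn1l (0.91, 0.88 and 0.88).

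The rest of the pathway was read from 7 lists with 81 genes, of which 76 are on the array and 57 were tested. For both hairpins against scr, 0 of the 57 genes passed in limma, where 2.18% of all genes did. At an unadjusted p under 0.05 there were 12 of the 57, against 1857 of all 12673 genes. For sh14 against scr 0 passed, where 3.06% of all genes did, with 6 at an unadjusted p under 0.05 against 2162 of all 12673. For sh133 against scr 1 was higher and 3 were lower, where 4.91% of all genes were called. Tgfbr3, the co-receptor betaglycan, had a log2 signal of 2.41, 2.56, 3.17 and 2.86 in sh133 and at most 1.95 in the other lines, and was higher by 1.03 ± 0.17 SE (adjusted p = 0.00713). Ppm1a, a phosphatase described as acting on SMADs, was lower by -0.69 (adjusted p = 0.0085). Lemd3, an inner nuclear membrane protein that binds SMADs, was lower by -0.61 (adjusted p = 0.0183), and Crim1, a transmembrane BMP antagonist, by -0.71 (adjusted p = 0.0379). Between sh14 and sh133, where 14.6% of all genes were called, the 3 called genes were Tgfbr3 (-1.09, adjusted p = 0.00218), Ppm1a (0.74, adjusted p = 0.00256) and Fkbp1a (-0.49, adjusted p = 0.0468).

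At 22 h against 1 h, 6 of the 57 genes were higher and 7 lower, where 18.1% of all genes were called, with a median difference of -0.02 against 0.02 over all genes. Of 8 receptors and co-receptors tested, 2 were lower and 1 was higher. Bmpr1a, a type I BMP receptor, had a log2 signal of 5.41, 4.74, 4.73 and 4.63 in scr, 5.60, 4.89, 4.49 and 3.94 in sh14, and 5.05, 4.65, 4.43 and 4.12 in sh133, and fell by 1.12 ± 0.16 SE (limma adjusted p = 0.00101). It was lowest at 22 h in every line. Bmpr2, the type II receptor, fell by 0.90 (adjusted p = 0.00395), and Acvr1, another type I receptor, was higher by 0.36 (adjusted p = 0.026) at a mean near 2. Of 15 other SMADs and SMAD regulators 3 were lower and none higher. They were Fkbp1a (-0.70, adjusted p = 0.00402), which holds type I receptors inactive, Smad4 (-0.67, adjusted p = 0.00117), the common partner SMAD, and Tob1 (-0.60, adjusted p = 0.0387), an antiproliferative protein that binds SMADs. None of the 5 tested BMP ligands outside the members passed.

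Of 9 antagonists tested, 2 were higher at 22 h, namely Dand5 by 0.78 (limma adjusted p = 0.00503) and Crim1 by 0.55 (adjusted p = 0.0252). Of 7 other target genes, Junb was lower by -0.54 (adjusted p = 0.0414) and the rest did not pass. In the TGF-beta and activin arm of 8 genes, the ligand Tgfb2 was higher by 1.36 (adjusted p = 0.00502) and the receptor Tgfbr2 lower by -0.55 (adjusted p = 0.0354). Among 7 genes of E proteins and the TAL1 complex, Tal1 was higher by 0.80 (adjusted p = 0.000581) and Lmo2 by 0.40 (adjusted p = 0.0187), and none was lower. The E proteins, which ID proteins hold away from DNA, did not pass (Tcf3 -0.09, Tcf4 -0.11 and Tcf12 -0.03). At 6 h against 1 h 4 of the 57 genes were higher and 1 lower, where 4.86% of all genes were called, and at 12 h 5 were higher and 1 lower, where 7.06% were. For the change of the time course 0 of 57 passed in limma, where 0.0316% of all genes did. At an unadjusted p under 0.05 there were 10 of the 57, against 2049 of all 12673 genes.

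**Figure D5:**
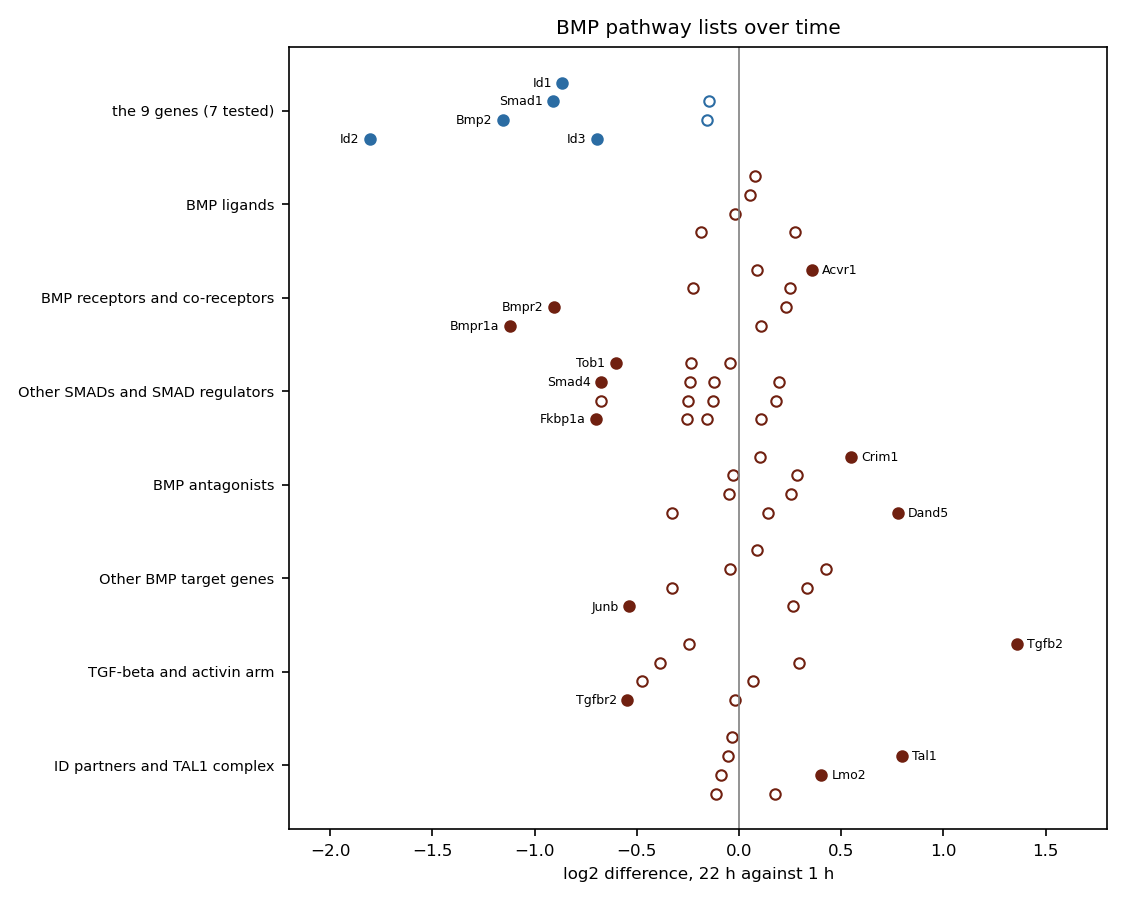
Log2 difference of 22 h from 1 h (x axis) for the 7 tested members and for the tested genes of 7 pathway lists (y axis). Each point is a gene, its height within a list carries no value, and filled points passed the adjusted threshold of 0.05 in limma. The 5 called members and Bmpr1a, Bmpr2, Smad4, Fkbp1a, Tob1, Junb and Tgfbr2 lie below 0, and Tgfb2 and Tal1 lie farthest above it among the called genes of the lists. Of the members, Id3 was tested only through its level in sh14.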

How the data were processed

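The authors deposited 1 table of log2 probe set signals. The submitters' processing notes name RMA, whose version is not given in the sources used here. It equalises array distributions, so a change in total RNA cannot be seen. Genes were named from the platform annotation and the RefSeq table of assembly GRCm38.p6. The brightest probe set stood for a gene, and 12673 of 18194 genes had a mean at or above log2 1.45, the 40th percentile over probe sets, and were tested.

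limma 3.58.1 in R 4.3.3 fitted terms for shRNA, each time and array run to all 12 arrays, with 5 residual degrees of freedom, and knockdown by time with 4. p-values were adjusted by Benjamini-Hochberg over all 12673 genes, with a threshold of 0.05. They measure only the spread that these terms leave, since no line and time has a second array and few arrays limit the precision. The script was tested on simulated data. Every member is named. From each pathway list up to 4 called genes of largest difference a comparison are named for the line comparisons and 22 h, and the 3 genes most correlated with each member. The mast cell, megakaryocyte and erythroid genes printed were picked from the marker lists after their values were seen. The members and lists were chosen with earlier results of these data known. Alternatives changed the run term, the filter, the probe set rule, the centring, the variance model and the arrays used. Figures were drawn with Python 3.11.15.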

Additional observations from a re-analysis of the deposited data

Results flagged for a closer look

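In 4 of 27 checks of a gene in the 4 arrays of 1 line, the highest or lowest array stood apart from the other 3 by more than Dixon's 95% limit, which chance alone passes in about 1 of 20 checks. The 4 arrays of a line differ in time, and all 4 values are those of the 1 h array. Bmp2 in scr at 1 h had a log2 signal of 6.81, and Bmp4 in scr at 1 h had 0.57, its lowest. Id2 in sh14 at 1 h had 4.38, and Id3 in the same array had 2.92.

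Of 14 checks, 7 of the hairpins against each other and 7 of knockdown by time, 2 passed the test: Bmp2 in sh14 against sh133 by -0.76 and Id2 by 0.74.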

How the results depend on the processing

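Of 1097 values of members under alternatives, 968 kept their direction and side of the threshold, 57 lost the call, 21 gained one and 51 changed sign. The causes were not tested. No paired analysis was possible because the labels carry no replicate numbers. The time term of the model matches the lines by time.

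Member genes called were 3 for both hairpins without the run term (1 with it), 2 for sh14 and 2 for sh133, and 0 for both hairpins and for sh133 without the arrays of 1 h, an alternative added after seeing the data. For sh14 against sh133 they were 1 without a filter, 1 with arrays centred on their medians and 0 with probe sets fitted singly, in place of 2, and 3 without the run term, with limma's trend and robust options, within run 1 and without the arrays of 1 h. A filter at the 60th percentile, which tests 5 members, gave 3 at 22 h, 1 at 6 h and 1 at 12 h. The mean of probe sets gave 6 at 22 h in place of 5, and no run term gave 4 at 6 h and 4 at 12 h in place of 3. Leaving out 1 array gave 0 to 1 called for both hairpins, for sh14 and for sh133, 0 to 3 for sh14 against sh133, 4 to 5 at 22 h, 0 to 3 at 6 h, 1 to 3 at 12 h and 0 to 2 for knockdown by time. Over all genes, the calls without the run term were 2049 in place of 276 for both hairpins, 3003 in place of 388 for sh14, 1592 in place of 622 for sh133, 3132 in place of 1856 for sh14 against sh133, and 946 in place of 616 at 6 h. Without the arrays of 1 h they were 111, 253 and 385 for the first 3. For sh133 within run 2 they were 254. Fitted singly, 3605 of 22549 probe sets passed at 22 h and 1357 at 12 h, against 2291 and 895 of 12673 genes. For knockdown by time, 4 genes became 0 to 112 with all arrays kept. With 1 array left out, which leaves fewer degrees of freedom, the calls over all genes ran from 59 to 384 for both hairpins, 87 to 555 for sh14, 135 to 734 for sh133, 390 to 2206 for sh14 against sh133, 1146 to 2273 at 22 h, 97 to 730 at 6 h, 221 to 1110 at 12 h and 0 to 361 for knockdown by time.

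Signs changed without the run term for Id3 (0.20 in both hairpins, 0.50 in sh14), Id1 (-0.22 in sh14) and Smad7 (0.0478 in sh133, 0.0498 at 6 h). With the mean of probe sets they changed for Smad5 (0.14 in both hairpins) and Smad7 (0.0745 in sh133, 0.12 at 6 h, 0.12 at 12 h), and with centring for Smad7 (-0.0151 in both hairpins). Without the arrays of 1 h they changed for Smad5 in sh14 (-0.00985), Id2 in sh133 (-0.0353) and Smad7 in sh133 (0.34). None of these values was called in either fit.

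Leaving out 1 array turned only values that were not called. For both hairpins the ranges were -0.46 to 0.00941 for Id3, -0.0845 to 0.62 for Smad1, -0.35 to 0.21 for Smad5 and -0.35 to 0.37 for Smad7. For sh14 they were -0.0724 to 0.20 for Id1, -0.33 to 0.18 for Id3, -0.13 to 0.58 for Smad1, -0.13 to 0.43 for Smad5 and -0.30 to 0.42 for Smad7. For sh133 they were -0.16 to 0.27 for Id2, -0.0432 to 0.67 for Smad1 and -0.40 to 0.32 for Smad7. For sh14 against sh133 Smad1 ran from -0.22 to 0.00103. Over time Smad5 ran from -0.35 to 0.0312 at 22 h, Smad1 from -0.20 to 0.11 and Smad7 from -0.13 to 0.14 at 6 h, and Smad7 from -0.18 to 0.0888 at 12 h. For knockdown by time Id1 ran from -0.0435 to 0.24, Id2 from -0.33 to 0.12 and Smad5 from -0.0342 to 0.14.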
